A study of Mus musculus with 15 samples.

Results

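Stabilin-1, also called Clever-1, is a large scavenger receptor of sinusoidal endothelium and of some macrophages, and its gene is Stab1. It takes up extracellular proteins from blood and tissue and delivers them to endosomes and lysosomes, and it also moves between the trans-Golgi network and endosomes. The genes described here encode the proteins that the receptor is reported to bind or be sorted by: 5 secreted or lysosomal ligands (Sparc, Chid1, Gdf15, Postn and Tgfbi) and 4 cytoplasmic sorting partners (Gga1, Gga2, Gga3 and Snx17). They were taken by symbol from the deposited table, in which each had 1 row, giving 9 of 19464 rows. All 9 had enough reads to be tested in every comparison.

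The libraries come from whole liver. At 2 weeks of age there were 4 wildtype and 4 Stab1-/- livers, and at the fetal stage E17.5 there were 4 wildtype and 3 Stab1-/- livers. All 15 libraries carry the strain background C57BL/6N;129SvJ in the labels, and no treatment is given. The knockout is not limited to one cell type, so effects that start in endothelium and in macrophages cannot be told apart. The labels do not say whether wildtype and Stab1-/- mice were littermates. The libraries are taken as separate samples on their numbers alone, and the p-values set group differences against the spread between these samples. The comparisons ask whether loss of the receptor moved the mRNA of its ligands and adaptors at either stage, and how these mRNAs differed between the fetal and the young liver.

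Among the ligands, SPARC is a collagen-binding matricellular glycoprotein that stabilin-1 internalises. CHID1, or SI-CLP, is a chitinase-like lectin that the receptor carries to secretory lysosomes. GDF15 is a stress-induced cytokine of the TGF-beta superfamily, and periostin (Postn) and TGFBI are related matrix proteins built from fasciclin domains. The GGA proteins are clathrin adaptors that carry cargo from the trans-Golgi network to endosomes, and SNX17 is an endosomal adaptor that returns receptors to the cell surface. In the liver, the ligands come from mesenchymal, endothelial, macrophage and epithelial cells, and the adaptors are expressed widely.

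The depth of the libraries ranged from about 9660000 to 10960000 reads on genes. Expression levels are given as RPKM, the reads of a gene scaled by its length and by all reads counted on genes, which allows levels of different genes to be set side by side. Stab1 itself was at 0.862, 0.911, 1.54 and 1.05 RPKM in Stab1-/- and at 9.15, 7.30, 9.68 and 11.03 RPKM in wildtype livers at 2 weeks. At E17.5 it was at 4.29, 3.60 and 5.23 RPKM in Stab1-/- and at 15.5, 14.9, 16.5 and 21.8 RPKM in wildtype livers. The knockout libraries were thus all below the wildtype ones. In Stab1-/- libraries 79.4% to 86.0% of the gene model was covered at E17.5, with 301 to 443 reads. At 2 weeks 26.2% to 41.1% was covered, with 68 to 119 reads, and coverage was not adjusted for read number. Stab2, the gene of the related receptor that shares several of these ligands, did not pass the test between genotypes at 2 weeks (log2 fold change -0.17, adjusted p = 0.488) or at E17.5 (log2 fold change 0.29, adjusted p = 0.331, edgeR with Benjamini-Hochberg adjustment). One library stood apart in these genes: at E17.5, the Stab1-/- replicate 1 held the highest level of its group in 8 of 9 members. Values without it are given beside the results that rest on it.

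Liver markers were present in all groups. The study's own list of genes higher in E17.5 Stab1-/- livers includes genes it describes as intestinal and as enteric smooth muscle. The lists used here hold no marker of those tissues, and their part in the E17.5 results was not tested. The summed RPKM of 6 hepatocyte markers was 55557 to 71369 in Stab1-/- and 72021 to 92202 in wildtype livers at 2 weeks, where Pck1 was the 1 marker of 6 that passed the test (lower in Stab1-/-) and DESeq2 called 3 (Alb, Pck1 and Ttr). Of 8 markers of sinusoidal endothelium, Dnase1l3 and Kdr were lower in Stab1-/- livers at 2 weeks (log2 fold changes -0.64 and -0.43, adjusted p = 0.0328 and 0.0476, edgeR with Benjamini-Hochberg adjustment), while the summed level of the list overlapped (173 to 180 RPKM against 166 to 198 RPKM). The summed level of 7 stellate cell markers overlapped as well (206 to 242 RPKM in Stab1-/- and 202 to 252 RPKM in wildtype livers), with 1 of 7 lower in Stab1-/-. None of 7 Kupffer cell markers was called between genotypes by edgeR at 2 weeks or at E17.5, where 2 and 3 of them had an unadjusted p under 0.05 and DESeq2 called 0 and 1 (Marco). The stages differed far more: 6 erythroid markers summed to 1583 to 2471 RPKM in E17.5 livers and to 72.8 to 135 RPKM in 2-week-old livers, and 6 megakaryocyte markers to 171 to 251 RPKM and 6.98 to 15.1 RPKM. The part of these marker levels in the results was not tested, and in bulk tissue fewer cells of a type and less RNA per cell cannot be told apart.

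The members covered a wide range of levels. Sparc was by far the most abundant in every group, with a mean of 223 ± 4.77 RPKM in 2-week-old wildtype livers (SD, n = 4) and 86.1 ± 7.71 RPKM in E17.5 wildtype livers (SD, n = 4). Gdf15 was close to the limit of detection, with 8 to 16 reads per library in E17.5 wildtype and 21 to 45 reads in 2-week-old wildtype livers. In 2-week-old wildtype livers the order of mean RPKM was Sparc, Tgfbi, Postn, Gga1, Snx17, Chid1, Gdf15, Gga3 and Gga2, and the ranges of the neighbours Tgfbi and Postn, Gdf15 and Gga3, and Gga3 and Gga2 overlapped. In E17.5 wildtype livers the order was Sparc, Postn, Snx17, Gga1, Gga2, Tgfbi, Gga3, Chid1 and Gdf15. There only Sparc and Postn, Snx17 and Gga1, and Chid1 and Gdf15 were neighbours whose ranges did not overlap. In 2-week-old Stab1-/- livers the order was Sparc, Tgfbi, Postn, Gga1, Snx17, Chid1, Gdf15, Gga3 and Gga2, as in wildtype. In E17.5 Stab1-/- livers it was Sparc, Snx17, Gga2, Postn, Gga1, Tgfbi, Gga3, Chid1 and Gdf15, with Postn 2 places lower than in wildtype and the 5 genes from Snx17 to Tgfbi overlapping from each to the next.

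**Figure D1:**
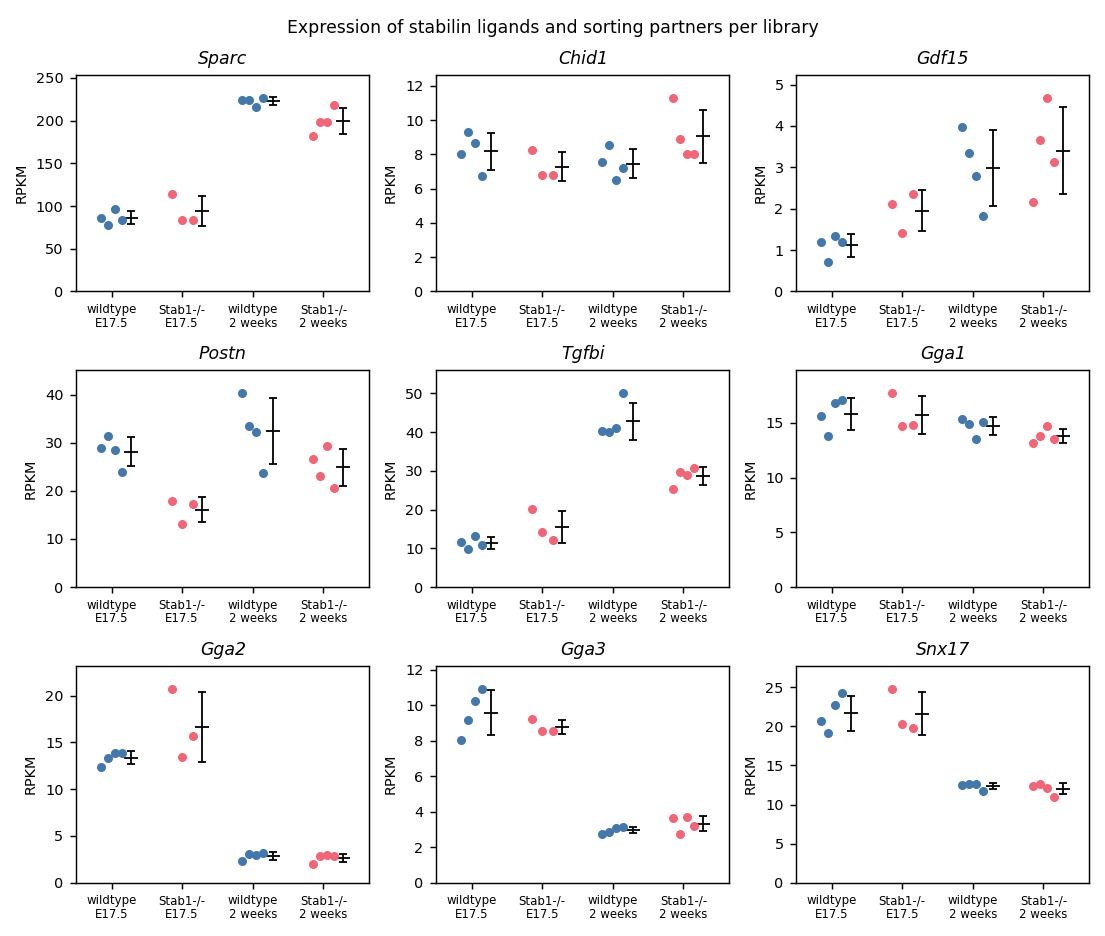
RPKM (vertical axes, linear from 0) of the 9 genes in each library (points), by genotype and stage (horizontal axes), with the mean and SD of each group in black. Postn was lower in Stab1-/- than in wildtype livers in every E17.5 library, Tgfbi in every 2-week library, and Gga2 fell from 12.4 to 13.9 RPKM in E17.5 wildtype libraries to 2.29 to 3.20 RPKM in 2-week-old ones.

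The start regions of 3 members are shown because the results turn on them: Postn and Tgfbi, which passed the test between genotypes, and Gga2, which fell most between stages. Each is the window of up to 250 bases ahead of the RefSeq gene start on GRCm38.p6, read 5′ to 3′ on the strand of the gene. All 9 members had an entry. Capitals mark the matches to 5 promoter motifs, searched on both strands, and no marked motifs overlap.

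Postn, chr3:54360857-54361106, plus strand: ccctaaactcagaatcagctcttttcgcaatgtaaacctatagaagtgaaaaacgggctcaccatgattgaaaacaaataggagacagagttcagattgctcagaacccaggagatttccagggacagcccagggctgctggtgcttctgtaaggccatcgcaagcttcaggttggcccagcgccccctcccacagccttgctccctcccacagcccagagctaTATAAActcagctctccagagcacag

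Tgfbi, chr13:56609336-56609522, plus strand: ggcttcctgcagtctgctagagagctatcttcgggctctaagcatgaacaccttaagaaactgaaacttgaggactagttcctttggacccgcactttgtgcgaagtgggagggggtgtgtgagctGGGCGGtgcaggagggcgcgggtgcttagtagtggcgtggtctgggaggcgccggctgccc

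Gga2, chr7:122021199-122021448, minus strand: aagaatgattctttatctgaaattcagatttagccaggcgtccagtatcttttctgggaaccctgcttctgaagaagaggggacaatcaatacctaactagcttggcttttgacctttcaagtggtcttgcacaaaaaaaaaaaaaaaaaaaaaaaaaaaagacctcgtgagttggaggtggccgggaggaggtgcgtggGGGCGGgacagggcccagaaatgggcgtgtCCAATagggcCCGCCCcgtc

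The Postn window held a TATA box (TATAAA), found in 12.4% of all 32851 RefSeq mouse promoter windows searched. The Tgfbi window, printed up to the start of the GENCODE gene with 63 bases left out, held 1 GC box (GGGCGG) and no TATA box. The Gga2 window held 2 GC boxes, 1 on each strand, and 1 CCAAT box (spelled as its name), which were found in 32.7% and 33.8% of all windows. The cyclic AMP response element TGACGTCA, found in 1.55% of windows, was in none of the 3 sequences. Nor was GTCTAGAC, a palindrome bound by SMAD proteins that was found in 0.167% of windows. The printed windows of the related genes Postn and Tgfbi thus shared none of the motifs searched. These matches describe the letters and are not sites known to be bound.

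At 2 weeks, Tgfbi was the member that differed between genotypes, and periostin had a lower mean in Stab1-/- livers too but did not pass the test. Tgfbi (gene ID 21810, chr13:56609523-56639562, plus strand, GENCODE vM21 on GRCm38) encodes a matrix protein induced by TGF-beta. It was at 25.4, 29.7, 29.0 and 30.6 RPKM in Stab1-/- and at 40.1, 39.9, 41.0 and 50.0 RPKM in wildtype livers. Every Stab1-/- library was below every wildtype library, and replicate 4 was well above the other wildtype libraries. The fitted level in Stab1-/- was 62.9% of that in wildtype (log2 fold change -0.67, SE 0.12, adjusted p = 0.0159, edgeR quasi-likelihood test with Benjamini-Hochberg adjustment over all genes). Tgfbi was the 1 of 9 members that was called, where 2.67% of all 12716 genes tested were called in either direction, 1.74% as lower and 0.936% as higher. It was also the 1 member whose groups did not overlap, which was so for 14.9% of genes. Without the wildtype replicate 4 the log2 fold change was -0.56 (adjusted p = 0.0272), and without the Stab1-/- replicate 1, the lowest of its group, it was -0.59 and no longer passed (adjusted p = 0.0552).

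Postn (gene ID 50706, chr3:54361109-54391037, plus strand), a matrix protein of activated fibroblasts, was at 26.6, 23.1, 29.3 and 20.6 RPKM in Stab1-/- and at 40.3, 33.5, 32.2 and 23.7 RPKM in wildtype livers at 2 weeks. The groups overlapped through the wildtype replicate 4, which was within the Stab1-/- range. The log2 fold change was -0.47 (SE 0.14, adjusted p = 0.0870, edgeR with Benjamini-Hochberg adjustment), and without that library it was -0.58 and passed (adjusted p = 0.0354). The Postn transcript is poor in GC: its GC content of 36.3% lay at percentile 0.677 of the genes tested, whose median was 49.6%. With an offset for GC content the log2 fold change at 2 weeks was -0.86 (adjusted p = 0.00210), so that the size of the Postn difference moved with the treatment of GC content.

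Sparc (gene ID 20692, chr11:55394500-55423183, minus strand) was at 182, 199, 198 and 218 RPKM in Stab1-/- and at 224, 224, 216 and 227 RPKM in wildtype livers at 2 weeks. Only the highest Stab1-/- library reached the wildtype range, but the difference did not pass the test (log2 fold change -0.25, SE 0.10, adjusted p = 0.179, edgeR with Benjamini-Hochberg adjustment). Chid1 (gene ID 68038, chr7:141493136-141539857, minus strand) was at 11.3, 8.88, 8.01 and 8.02 RPKM in Stab1-/- and at 7.57, 8.54, 6.51 and 7.21 RPKM in wildtype livers. Its groups overlapped, and the log2 fold change was 0.19 (SE 0.12, adjusted p = 0.363, edgeR with Benjamini-Hochberg adjustment). Chid1 overlaps Tspan4 on the opposite strand over 292 bases and the gene model Gm45416 on its own strand over 2201 bases, and whether the counting used strand is not given in the sources used here. Gdf15 (gene ID 23886, chr8:70629393-70632456, minus strand) had 23, 42, 49 and 33 reads in Stab1-/- and 45, 36, 32 and 21 reads in wildtype livers, which is 2.15 to 4.68 RPKM and 1.82 to 3.97 RPKM. The groups overlapped, and the difference did not pass (log2 fold change 0.11, SE 0.27, adjusted p = 0.837, edgeR with Benjamini-Hochberg adjustment).

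None of the 4 sorting partners was called by edgeR between genotypes at 2 weeks, nor by DESeq2, and none had an unadjusted p under 0.05. Gga1 (gene ID 106039, chr15:78877190-78894585, plus strand) was at 13.1 to 14.7 RPKM in Stab1-/- and at 13.5 to 15.4 RPKM in wildtype livers (log2 fold change -0.18, SE 0.09). Gga2 (gene ID 74105, chr7:121986722-122021222, minus strand) was at 2.03, 2.80, 2.92 and 2.86 RPKM in Stab1-/- and at 2.29, 3.01, 2.94 and 3.20 RPKM in wildtype livers (log2 fold change -0.20, SE 0.16). Gga3 (gene ID 260302, chr11:115584255-115604051, minus strand) was at 2.76 to 3.72 RPKM and 2.76 to 3.11 RPKM (log2 fold change 0.08, SE 0.13). Snx17 (gene ID 266781, chr5:31193227-31199143, plus strand) was the steadiest of the 4 in wildtype livers, with 11.0 to 12.6 RPKM in Stab1-/- and 11.7 to 12.7 RPKM in wildtype livers (log2 fold change -0.13, SE 0.09). The 4 groups of values overlapped between genotypes in each case. Gga3 overlaps Mrps7 on the opposite strand over 127 bases, and Snx17 overlaps Eif2b4 and Zfp513 over 204 and 163 bases. Gga2 overlaps the antisense gene Gm44987 over 2395 bases. Gga3 overlaps the small nuclear RNA gene Gm25364 over 107 bases and Gga1 the microRNA gene Mir6955 over 74 bases. These are overlaps of whole gene spans with introns. Whether counted reads fall in them was not checked, so how many reads are uncertain in origin is not known.

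At E17.5, periostin was the member that differed between genotypes. Postn was at 18.0, 13.1 and 17.2 RPKM in Stab1-/- and at 29.0, 31.4, 28.5 and 24.0 RPKM in wildtype livers, and every Stab1-/- library was below every wildtype library. The fitted level in Stab1-/- was 59.4% of that in wildtype (log2 fold change -0.75, SE 0.12, adjusted p = 0.0421, edgeR with Benjamini-Hochberg adjustment). Postn was the 1 of 9 members called, where 0.366% of all 13388 genes tested were called, 0.172% as lower and 0.194% as higher. The adjusted p was close to the threshold: the call was lost with the GC-content offset (log2 fold change -0.51, adjusted p = 0.153) and without any 1 library other than the wildtype replicate 4, with adjusted p between 0.0540 and 0.136 and log2 fold changes between -0.82 and -0.65. Of 18 alternatives, 8 kept the call, among them DESeq2 (adjusted p = 1.06e-05), and none changed the sign.

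Of the other members, 3 had an unadjusted p under 0.05 at E17.5 and a higher mean in Stab1-/- livers, and none passed after adjustment. By unadjusted p they ranked 649 (Tgfbi), 757 (Gdf15) and 587 (Gga2) of 13388 genes tested, so many genes lay under this cut-off. Tgfbi was at 20.0, 14.1 and 12.1 RPKM in Stab1-/- and at 11.7, 9.68, 13.2 and 10.7 RPKM in wildtype livers, with 1 wildtype library within the Stab1-/- range (log2 fold change 0.50, SE 0.17, adjusted p = 0.257, edgeR with Benjamini-Hochberg adjustment). Without the Stab1-/- replicate 1 its log2 fold change was 0.29 (adjusted p = 0.584). Gdf15 had 24, 16 and 27 reads in Stab1-/- and 14, 8, 16 and 14 reads in wildtype livers, or 2.10, 1.41 and 2.35 RPKM against 1.20, 0.706, 1.35 and 1.21 RPKM. In RPKM the Gdf15 groups did not overlap, which held for 2 of 9 members and for 12.2% of genes. The nearest libraries of the genotypes, at 1.41 and 1.35 RPKM, both had 16 reads, so the read counts themselves touched. The log2 fold change of Gdf15 was 0.86 (SE 0.30, adjusted p = 0.288, edgeR with Benjamini-Hochberg adjustment). Gga2 was at 20.7, 13.4 and 15.7 RPKM in Stab1-/- and at 12.4, 13.3, 13.9 and 13.8 RPKM in wildtype livers (log2 fold change 0.37, SE 0.12, adjusted p = 0.253), and without the Stab1-/- replicate 1 its log2 fold change was 0.20 (adjusted p = 0.567).

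The remaining members were close between genotypes at E17.5. Sparc was at 114, 83.9 and 83.8 RPKM in Stab1-/- and at 86.2, 78.3, 96.6 and 83.4 RPKM in wildtype livers, so that its higher mean in Stab1-/- rested on replicate 1 (log2 fold change 0.18, and 0.04 without that library). Chid1 was at 6.79 to 8.27 RPKM in Stab1-/- and 6.77 to 9.32 RPKM in wildtype livers, and Gga3 at 8.53 to 9.21 RPKM and 8.03 to 10.9 RPKM (log2 fold changes -0.11 and -0.07). Gga1 was at 14.7 to 17.7 RPKM and 13.8 to 17.1 RPKM, and Snx17 at 19.8 to 24.8 RPKM and 19.1 to 24.3 RPKM. Their log2 fold changes were 0.05 and 0.06 with SE 0.10 and 0.11, and both turned to a sign below 0 when libraries were scaled by their totals.

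**Figure D2:**
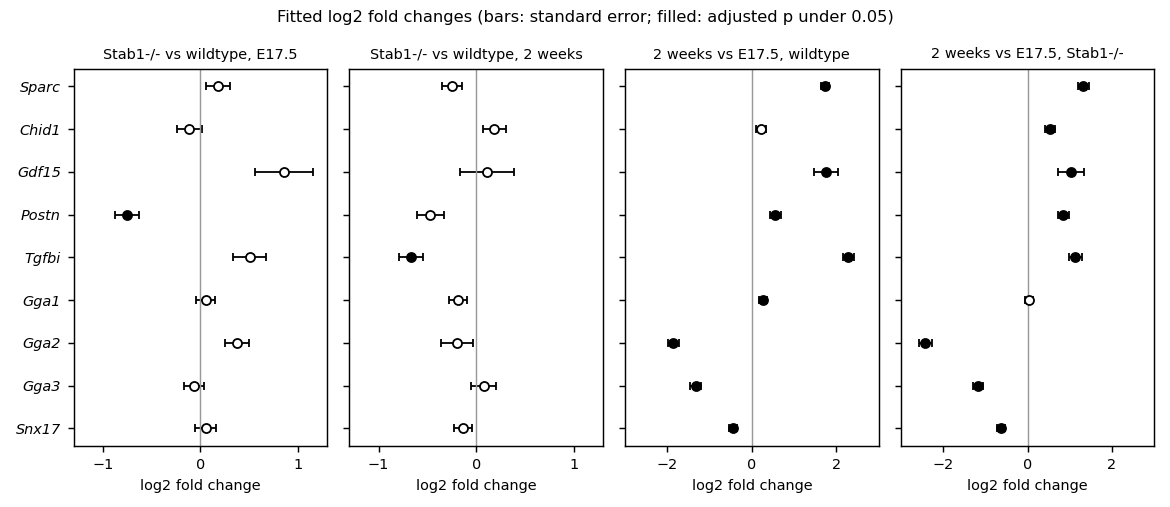
Fitted log2 fold changes (horizontal axes) with their standard errors for the 9 genes in 4 comparisons, filled where the adjusted p was under 0.05. Between genotypes, Postn at E17.5 and Tgfbi at 2 weeks are filled, and the signs for Tgfbi are opposite at the 2 stages. Between stages most genes are filled, with the ligands to the right of 0 and Gga2, Gga3 and Snx17 to the left.

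The difference in Tgfbi between genotypes itself differed between the stages. In a fit to all 15 libraries, the log2 fold change between genotypes was higher by 1.13 at E17.5 than at 2 weeks (SE 0.21, adjusted p = 0.0210, edgeR with Benjamini-Hochberg adjustment). Tgfbi was the 1 of 9 members called in this test, where 1.81% of 13885 genes were called, 1.01% in this direction and 0.799% in the other. It was no longer called without the Stab1-/- replicate 1 at E17.5 (adjusted p = 0.0567, difference 0.95) or without the wildtype replicate 2 at E17.5 (adjusted p = 0.0515, difference 1.06). For Postn the difference was -0.31 (SE 0.20, adjusted p = 0.358), and with the GC-content offset it was 0.34. The differences for Sparc (0.39, SE 0.16, adjusted p = 0.155) and Gga2 (0.53, SE 0.20, adjusted p = 0.137) had unadjusted p values under 0.05 and did not pass in edgeR after Benjamini-Hochberg adjustment. By unadjusted p they ranked 2160 and 1885 of 13885 genes.

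The balance of the related proteins Postn and Tgfbi was also taken within each library, as the log2 of the ratio of their RPKM. At E17.5 it was 1.31, 1.69, 1.11 and 1.16 in wildtype and -0.16, -0.10 and 0.51 in Stab1-/- livers. Every wildtype library at E17.5 thus held at least 2.16 times as much Postn as Tgfbi per length, and no Stab1-/- library held more than 1.42 times as much. The difference in means was -1.24, and a two-sided exact permutation test gave p = 0.0571, the smallest that 3 against 4 libraries allow (adjusted p = 0.114 over 4 comparisons). At 2 weeks the ratio was -0.21 ± 0.31 in Stab1-/- and -0.42 ± 0.46 in wildtype livers (mean ± SD, n = 4 each, exact permutation p = 0.543). Between the stages it fell by 1.74 in wildtype livers (exact permutation p = 0.0286, the smallest that 4 against 4 allow, adjusted p = 0.114) and by 0.29 in Stab1-/- livers (exact permutation p = 0.343).

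From E17.5 to 2 weeks of age, 8 of 9 members were called in wildtype livers, 5 higher and 3 lower, and 8 of 9 in Stab1-/- livers, again 5 and 3. These shares stand beside 71.9% of 13369 genes called in wildtype livers and 72.5% of 13433 genes in Stab1-/- livers, so a call between stages was the common case. Of all genes, 34.9% were higher and 37.0% lower at 2 weeks in wildtype livers, and 35.7% and 36.8% in Stab1-/- livers. The comparisons between stages use the same libraries as those between genotypes. The groups did not overlap in RPKM for 6 members in wildtype and 7 in Stab1-/- livers, and for 69.1% and 72.0% of genes. Scaling by library totals in place of TMM moved the median log2 fold change of all genes by -0.36 in wildtype and by -0.22 in Stab1-/- livers. RPKM carries library totals, so a ratio of RPKM is lower than the fitted fold change between stages, and small changes are read against that shift.

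Of the 5 ligands, all but Chid1 rose in wildtype livers, and all 5 rose in Stab1-/- livers. Tgfbi went from 9.68 to 13.2 RPKM in E17.5 wildtype livers to 39.9 to 50.0 RPKM at 2 weeks, the largest rise among the members (4.86-fold by the fit, log2 fold change 2.28, SE 0.13). In Stab1-/- livers it rose 2.18-fold (log2 fold change 1.13, SE 0.15), and both rises passed with adjusted p = 1.65e-08 and 5.58e-05 in edgeR with Benjamini-Hochberg adjustment. Sparc rose 3.32-fold in wildtype and 2.49-fold in Stab1-/- livers (log2 fold changes 1.73 and 1.32). Gdf15 rose 3.38-fold in wildtype and 2.03-fold in Stab1-/- livers (log2 fold changes 1.76 and 1.02, SE 0.28 and 0.30), with few reads behind each value.

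Postn rose less, with a log2 fold change of 0.56 in wildtype (SE 0.14, adjusted p = 0.00294) and 0.85 in Stab1-/- livers (SE 0.12, adjusted p = 9.51e-05, edgeR with Benjamini-Hochberg adjustment). The RPKM of wildtype libraries overlapped between the stages, and the wildtype rise did not pass with library totals (0.20, adjusted p = 0.238) or with limma on RPKM (0.18, adjusted p = 0.291). In Stab1-/- livers the GC-content offset brought the rise of Postn to 0.39 (adjusted p = 0.0194). Chid1 differed least among the ligands: its log2 fold change was 0.22 in wildtype livers (adjusted p = 0.105), turning to -0.14 with library totals and passing at 0.31 with the GC-content offset (adjusted p = 0.0347), and 0.54 in Stab1-/- livers (adjusted p = 0.00221), where it was 0.31 with library totals and did not pass (adjusted p = 0.0685, edgeR with Benjamini-Hochberg adjustment).

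Sorting partners went the other way, apart from Gga1. Gga2 fell from 12.4, 13.3, 13.9 and 13.8 RPKM in E17.5 wildtype livers to 2.29, 3.01, 2.94 and 3.20 RPKM at 2 weeks, with no overlap. Its log2 fold change was -1.85 in wildtype (SE 0.12, adjusted p = 4.18e-08) and -2.41 in Stab1-/- livers (SE 0.16, adjusted p = 1.59e-07, edgeR with Benjamini-Hochberg adjustment). The percent of the Gga2 gene model covered was 72.2 to 79.2 in E17.5 libraries, which had 652 to 1067 Gga2 reads. It was 50.1 to 61.6 in 2-week-old libraries, which had 98 to 167, and coverage was not adjusted for read number. Gga3 fell as well, from 8.03 to 10.9 RPKM to 2.76 to 3.11 RPKM in wildtype livers (log2 fold change -1.33, SE 0.12) and by a log2 fold change of -1.18 in Stab1-/- livers (SE 0.11).

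Snx17 fell from 19.1 to 24.3 RPKM to 11.7 to 12.7 RPKM in wildtype livers (log2 fold change -0.45, SE 0.10, adjusted p = 0.00142) and by -0.63 in Stab1-/- livers (adjusted p = 0.000128, edgeR with Benjamini-Hochberg adjustment). Gga1 stayed at the same scale, with 13.8 to 17.1 RPKM in E17.5 and 13.5 to 15.4 RPKM in 2-week-old wildtype livers. Its log2 fold change was 0.26 in wildtype livers (adjusted p = 0.0328) and 0.03 in Stab1-/- livers (adjusted p = 0.753, edgeR with Benjamini-Hochberg adjustment), and with library totals it was -0.11 and -0.19, so no direction holds for Gga1.

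Because RPKM is per length, the 3 GGA paralogs could be summed. Their total was 38.7 ± 3.05 RPKM in E17.5 wildtype livers and 20.5 ± 0.74 RPKM in 2-week-old ones (mean ± SD, n = 4 each). Gga1 made up 40.8% ± 2.15 of the total at E17.5 and 71.7% ± 2.65 at 2 weeks in wildtype livers. Gga2 went from 34.5% ± 1.54 to 13.9% ± 1.84, and Gga3 from 24.7% ± 1.65 to 14.4% ± 1.06. In each case the 4 libraries of one stage were clear of the 4 of the other, and the two-sided exact permutation test gave p = 0.0286, the smallest it can give (adjusted p = 0.114 over 12 comparisons). In Stab1-/- livers Gga1 made up 38.4% ± 1.52 at E17.5 (n = 3) and 69.8% ± 1.09 at 2 weeks (n = 4), Gga2 went from 40.1% ± 3.46 to 13.4% ± 1.76, and Gga3 from 21.5% ± 2.02 to 16.8% ± 2.08. For each of the 3 shares the exact permutation p was 0.0571, again the smallest possible. Whether the change of these shares differed between genotypes was not tested. For the levels, the interaction test did not pass for Gga2 (0.53, adjusted p = 0.137) or Gga3 (-0.18, adjusted p = 0.531, edgeR with Benjamini-Hochberg adjustment).

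The design could not bring any share past the threshold after adjustment, so the shares are compared between genotypes by their values. At E17.5, Gga2 made up 40.1% ± 3.46 in Stab1-/- (n = 3) and 34.5% ± 1.54 in wildtype livers (n = 4, exact permutation p = 0.114), and at 2 weeks Gga3 made up 16.8% ± 2.08 and 14.4% ± 1.06 (n = 4 each, exact permutation p = 0.0857). Fetal liver thus held a mixture of the 3 paralogs in which none made up more than 43.5%, whereas Gga1 was the main GGA transcript at 2 weeks in both genotypes.

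**Figure D3:**
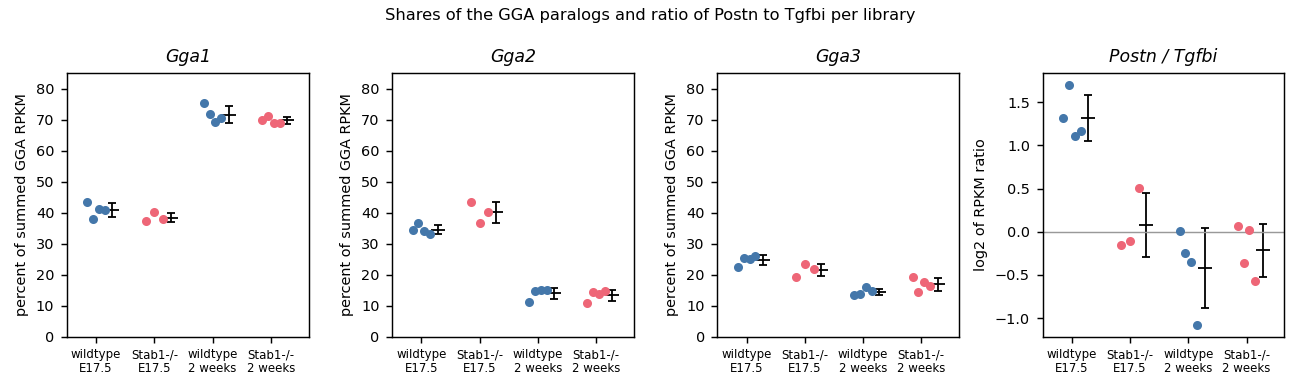
Share of each GGA paralog in the summed GGA RPKM (percent, first 3 panels) and log2 of the Postn to Tgfbi RPKM ratio (last panel) in each library, with the mean and SD of each group in black. The Gga1 share is near 40% at E17.5 and near 70% at 2 weeks in both genotypes, and the ratio is above 1.1 in all 4 wildtype libraries at E17.5.

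For the members that changed at least 2-fold between stages in wildtype livers, the genes with the most alike profile over the 15 libraries were listed, by the root mean square difference of log2 CPM profiles centred on their own means. These libraries share the stage difference, so the likeness is a description. Tgfbi, whose own profile spread by 0.93 about its mean, was closest to Agt, the gene of angiotensinogen (difference 0.18), Vwa8 (0.19) and Ece1, an endothelin-converting enzyme (0.19). Agt was at 745 ± 96.2 RPKM in wildtype and 512 ± 84.4 RPKM in Stab1-/- livers at 2 weeks, and at 206 ± 11.0 RPKM (n = 4) and 237 ± 23.0 RPKM (n = 3) at E17.5. Sparc was closest to Shpk, a sedoheptulose kinase, Fcgrt, the neonatal Fc receptor, and Cpt2, an enzyme of mitochondrial fatty acid uptake, with differences of 0.10, 0.10 and 0.11. Gga2 was closest to Rps6ka1, a ribosomal S6 kinase (0.14), Rgs12 (0.17) and Gys1, a glycogen synthase (0.19). Gga3 was closest to Noc2l, Tmem164 and Grk6, at 0.12, 0.12 and 0.13. The likest genes to Gdf15 (Tmem125, Lrrc61 and Pnrc1) were at 0.33 to 0.34, farther than for the other members named.

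The genes around the members were read in lists of their pathways. The matrix list of 14 genes held fibrillar, basement membrane and type VI collagens, fibronectin and collagen-processing partners. Of these, 8 were lower and none was higher in Stab1-/- than in wildtype livers at 2 weeks, where 2.67% of all genes were called and 1.74% were lower. The median log2 fold change of the list was -0.63 and that of all genes was -0.01. Those with the smallest adjusted p were Col5a1 (5.13 against 9.53 RPKM, log2 fold change -0.99, adjusted p = 0.00579), Col1a2 (14.4 against 26.5 RPKM, -0.97, adjusted p = 0.00618) and Col4a1 (17.7 against 29.6 RPKM, -0.83, adjusted p = 0.0157, edgeR with Benjamini-Hochberg adjustment). The other 5, named after their values were seen, were Col3a1, Col4a2, Col1a1, Col5a2 and the collagen chaperone Serpinh1. SPARC binds several of these collagens, and Tgfbi, which was lower in the same libraries, is a matrix protein too. DESeq2 called 11 of the 14, and 12 had an unadjusted p under 0.05 in edgeR. The log2 fold changes of the list ran from -1.03 to -0.16. The edgeR count of 8 fell to 3 without the Stab1-/- replicate 1 or the Stab1-/- replicate 2. It fell to 5 without the Stab1-/- replicate 3 or the wildtype replicate 3. It was 9 at most without 1 library, and 3 with limma on unfiltered RPKM.

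At E17.5 none of the 14 matrix genes was called by edgeR or by DESeq2 (2 had an unadjusted p under 0.05), and their median log2 fold change was 0.28. The difference between the stages passed for 1.81% of all genes, and in the matrix list for Col5a1, Col4a1, Col4a2 and Fn1. It was 1.28, 1.13, 1.27 and 1.02 on the log2 scale (adjusted p between 0.0163 and 0.0461, edgeR with Benjamini-Hochberg adjustment). In each, the log2 fold change between genotypes was higher at E17.5, as for Tgfbi. That count of 4 was 1 or 2 without any 1 of 9 libraries: at 2 weeks the Stab1-/- replicates 1, 2 and 3 and the wildtype replicates 3 and 4, at E17.5 the Stab1-/- replicates 1 and 2 and the wildtype replicates 1 and 2. In the stage comparison, Bmp1, a procollagen proteinase, and Col3a1 were higher at 2 weeks in wildtype livers (log2 fold changes 1.25 and 1.29). Lox, a collagen cross-linking oxidase, was lower (-1.58). They were among 5 higher and 4 lower of 14, beside 71.9% of all genes called.

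Of the other reported stabilin ligands, 4 were tested at 2 weeks and Reln was lower in Stab1-/- livers (wildtype level 18.8 RPKM, log2 fold change -0.62, adjusted p = 0.0340, edgeR with Benjamini-Hochberg adjustment). Reelin is also a marker of hepatic stellate cells and is counted in that list above. At E17.5 none of 5 was called by edgeR or DESeq2, with 1 at an unadjusted p under 0.05. Between stages in wildtype livers, F13a1, a coagulation factor chain of macrophages and platelets, was lower at 2 weeks (log2 fold change -5.66), as was Vwf (-1.08), and F13b, a hepatocyte-secreted chain, was higher (1.15). Of 11 matricellular genes related to SPARC or periostin tested at 2 weeks, Thbs2 was lower in Stab1-/- livers (log2 fold change -0.52, adjusted p = 0.0455, edgeR). At 2 weeks DESeq2 called 3 of these 11, and 1 of the 4 other ligands. The edgeR calls, 1 of 11 and 1 of 4, stand beside 2.67% of all genes called at 2 weeks. At E17.5 none of 10 matricellular genes was called by edgeR and 1 by DESeq2, with 3 at an unadjusted p under 0.05. Of 10 matricellular genes tested between stages in wildtype livers, 6 were called, beside 71.9% of all genes. At 2 weeks 4 were higher and 2 lower, among them Thbs1 (-3.76), Smoc2 (2.37) and Thbs2 (0.84). Both edgeR calls between genotypes depended on single libraries. No gene of the ligand list was called without Stab1-/- replicate 1, 2 or 4 or wildtype replicate 1, 3 or 4. None of the matricellular list was called without any 1 library other than wildtype replicate 2. Neither list had a call with library totals.

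The routes of the sorting partners did not differ between genotypes past the threshold. Of 12 genes of the GGA route (AP-1 subunits, ARF proteins, clathrin and sorting receptors), none was called by edgeR at 2 weeks or at E17.5. DESeq2 called 1 at each stage, and 3 and 2 had an unadjusted p under 0.05. Their log2 fold changes ran from -0.37 to 0.30 at 2 weeks and from -0.10 to 0.41 at E17.5. Many genes lay under that cut-off: at 2 weeks an unadjusted edgeR p of 0.0351 (Sparc) ranked only 2500 of 12716. Between stages in wildtype livers, where 71.9% of all genes were called, 4 were higher and 4 lower. The sorting receptor Igf2r was lower at 2 weeks (log2 fold change -1.53), as were the clathrin heavy chain Cltc (-0.73) and the receptor Sort1 (-0.51). Of 10 tested genes of the SNX17 route, none was called by edgeR or DESeq2 between genotypes at either stage, with 3 and 1 at an unadjusted p under 0.05. Between stages in wildtype livers Lrp1, a receptor that SNX17 recycles, and Commd1 were higher at 2 weeks (1.96 and 0.77) and Snx27 was lower (-0.27). Thus 3 of 10 were called in wildtype livers, beside 71.9% of all genes. In Stab1-/- livers 8 of 10 were called, beside 72.5% of all genes. With library totals the wildtype count was 8 as well, and the difference between the counts was not tested.

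Genes related to Gdf15, Tgfbi and Chid1 were read in the same way. Of 11 stress-induced genes tested at 2 weeks and 9 at E17.5, none was called between genotypes by edgeR or DESeq2 (1 and 2 at an unadjusted p under 0.05), and between stages in wildtype livers 2 were higher and 5 lower at 2 weeks, with Asns at -3.78, Ppp1r15a at -4.23 and Chac1 at 4.23 on the log2 scale. These 7 of 11 stand beside 71.9% of all genes called between the stages in wildtype livers. Of 10 genes of TGF-beta signalling none was called between genotypes by edgeR or DESeq2 at 2 weeks or E17.5 (3 and 2 at an unadjusted p under 0.05). Smad7, an inhibitor of the pathway, differed between the stages in its difference between genotypes (0.87, SE 0.20, adjusted p = 0.0437, edgeR with Benjamini-Hochberg adjustment), and no gene of the list was called in 10 of 15 fits that left out a library, the exceptions being without the 2-week Stab1-/- replicate 4, the 2-week wildtype replicates 1, 2 and 4, and the E17.5 wildtype replicate 3. Between stages in wildtype livers Tgfb1 was lower (-1.04) and Smad7 was higher (1.27) at 2 weeks, opposite in sign for the ligand Tgfb1 and for Tgfbi. Of the 7 chitinase-family genes in the table, 2 were tested at 2 weeks and 4 at E17.5, where edgeR called none and DESeq2 called 1 at each stage (1 and 1 at an unadjusted p under 0.05). Between stages in wildtype livers 3 of 4 were lower at 2 weeks (Chil1 -5.50, Chil3 -4.78 and Ovgp1 -1.61). Beside them, 71.9% of all genes were called and 37.0% were lower. Chid1 was not called. Between stages in Stab1-/- livers, where 72.5% of all genes were called, the calls were 12 of 14 in the matrix list, 3 of 5 in the other ligands, 6 of 11 in the matricellular genes, 6 of 12 in the GGA route, 8 of 11 in the stress-induced genes, 8 of 10 in TGF-beta signalling and 4 of 4 in the chitinase family.

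**Figure D4:**
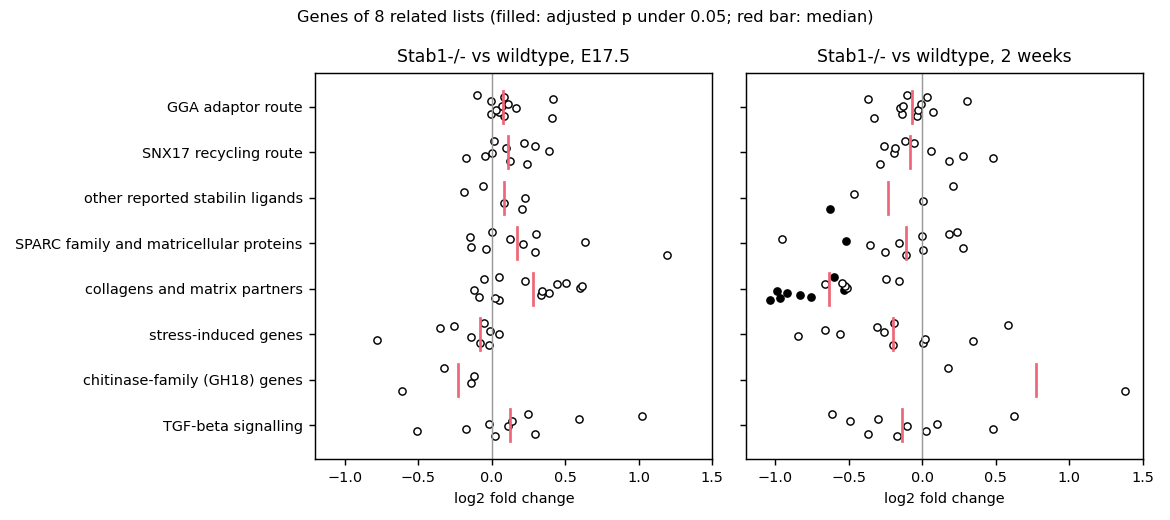
Log2 fold changes between genotypes (horizontal axes) of the tested genes of 8 related lists at E17.5 and at 2 weeks, filled where the adjusted p was under 0.05, with the median of each list as a red bar. The matrix list has 8 filled genes, all below 0, at 2 weeks and none at E17.5.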

How the data were processed

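Total RNA of 15 livers was sequenced. The authors deposited 1 table of 19464 rows with 3 values per library: raw counts (uniquely mapped reads of a gene, not normalized), RPKM made from those counts, the gene length and the reads counted on genes, and coverage as a percent of the gene model. Recomputing RPKM from the deposited counts gave the deposited RPKM values. The aligner, genome build and use of strand are not given in the sources used here, and the study names no test for sequencing. Samples were grouped by the genotype and age in the labels.

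The 9 genes and all lists were chosen with earlier results of these data known. Named are the 9 members, Stab1, Stab2, in each list up to 3 called genes with the smallest adjusted p per comparison (between stages in Stab1-/-, counts only), and for members with an absolute log2 fold change of at least 1 between stages in wildtype the 3 genes with the nearest profile. One further gene that this rule names is not reported here. Counts were tested with edgeR 4.0.16 (TMM, filterByExpr at its settings of 10 reads and 15 reads in total, quasi-likelihood test, two-sided) on the 2 groups compared, and on all 15 libraries for the interaction. Benjamini-Hochberg adjustment ran over all genes tested, and an adjusted p under 0.05 is a call. GGA shares and the log2 Postn to Tgfbi ratio (0.01 RPKM added) were compared by exact permutation over libraries. Alternatives were DESeq2 1.42.0, median-of-ratios or library-total scaling, no filter, a replicate block, GC-content offsets (92.7% of rows had a GC value), limma 3.58.1 on log2(RPKM + 0.1) or log2(RPKM + 1), all 15 libraries in one fit, and leaving out each library. The fits were tested on simulated data. The counts of no 2 libraries of a group agreed within sampling noise (lowest chi-square per degree of freedom 5.41), so none was counted as a repeat. Depth was about 9660000 to 10960000 reads per library, which left 8 to 49 reads for Gdf15 and 98 or more for each other member. Gene positions come from GENCODE vM21 on GRCm38, and promoter windows from RefSeq on GRCm38.p6.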

Additional observations from a re-analysis of the deposited data

Results flagged for a closer look

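Of 45 sets of 4 libraries examined for a single value far from the others, 4 were marked, where chance gives about 2.25. Tgfbi in 2-week-old wildtype livers was highest in replicate 4, at 50.0 RPKM, with the next library at 41.0 RPKM, and without it the log2 fold change between genotypes was -0.56. Gga2 in 2-week-old Stab1-/- livers was lowest in replicate 1, at 2.03 RPKM, with the next at 2.80 RPKM. The share of Gga2 in the GGA total in 2-week-old wildtype livers was lowest in replicate 1, at 11.2%, with the next at 14.5%. Stab2 in 2-week-old Stab1-/- livers was highest in replicate 3, at 17.3 RPKM, with the next at 13.5 RPKM.

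The effect of genotype differed between the stages by the interaction test for Tgfbi, where the log2 fold change was higher by 1.13 at E17.5 than at 2 weeks, and for Stab1 itself, where it was higher by 1.24, that is, less far below 0 at E17.5 (-1.91) than at 2 weeks (-3.19).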

How the results depend on the processing

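Over the 9 members, 827 of the log2 fold changes recomputed under the alternatives kept their direction and their side of the threshold. A further 26 no longer passed, 7 newly passed and 31 changed direction. Stab1, Stab2, the GGA shares and the Postn to Tgfbi ratio are not in these counts. At 2 weeks, 2 members rather than 1 were called between genotypes with DESeq2, the replicate block, the GC-content offset, and both together, since Postn joined Tgfbi. At E17.5, 0 were called with the replicate block, the GC-content offset, both together, and limma on unfiltered RPKM, which lost Postn. Leaving out 1 library gave 0 to 2 called members at 2 weeks, 0 to 1 at E17.5, 7 to 8 between stages in wildtype, 8 in Stab1-/-, and 0 to 1 for the interaction. With library totals or limma on RPKM, 6 were called between stages in wildtype, without Postn and Gga1, and 7 in Stab1-/-, without Chid1. Of the lists between stages, the SNX17 route went from 3 to 8 calls in wildtype with library totals or limma (9 unfiltered), TGF-beta signalling from 5 to 8 with library totals or filtered limma, the chitinase family from 3 to 5 without the filter, and the GGA route in Stab1-/- from 6 to 10 with the GC-content offset. Same-numbered libraries of the genotypes correlated by 0.14 on average at 2 weeks (lowest 0.02), against -0.05 for other numbers. At E17.5 these averages were -0.10 and 0.03. Between the stages they were 0.12 and -0.04 in wildtype and -0.03 and 0.01 in Stab1-/- livers. What the replicate numbers mark is not stated, and the main fits did not pair samples. Whether the numbers mark a shared batch was not tested. With the replicate block Postn had log2 fold changes of -0.46 (adjusted p = 0.0269) at 2 weeks and -0.84 (adjusted p = 0.0788, edgeR) at E17.5.

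The following values changed sign. Between genotypes at 2 weeks Gdf15 was -0.062 without Stab1-/- replicate 3 and -0.053 without wildtype replicate 4 (0.29 at most without 1 library). At E17.5, Gga1 was -0.0063 and Snx17 -0.0034 with library totals, Gga1 -0.0074 and -0.0070 and Snx17 -0.0058 and -0.0055 with limma at a pseudocount of 0.1 and 1, -0.020 and -0.034 without Stab1-/- replicate 1, and -0.012 and -0.0044 without wildtype replicate 2 (0.098 and 0.12 at most without 1 library). Between stages in wildtype, Chid1 was -0.14 and Gga1 -0.11 with library totals, and -0.13 and -0.12, and -0.10 and -0.095, with limma at the 2 pseudocounts. In Stab1-/-, Gga1 was -0.19 with library totals, -0.0058 with the replicate block, -0.19 and -0.17 with limma, -0.0077 without 2-week replicate 4 and -0.0075 without E17.5 replicate 3 (0.086 at most without 1 library), and Stab2 was -0.048 with library totals and -0.046 and -0.043 with limma. The Postn interaction was 0.34 with the GC-content offset and 0.30 with block and offset. Without 1 library, the Gga2 share difference at 2 weeks ran from -1.46 to 0.313 percentage points and the log2 Postn to Tgfbi difference from -0.015 to 0.34. The cause was not tested.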
